A study of Mus musculus with 36 samples.

Results

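Genes of peroxisomal lipid metabolism were followed through brown pre-adipocyte differentiation. These were 9 genes chosen by name among the 55536 annotated genes, namely the biogenesis factors *Pex11a*, *Pex16* and *Pex19*, the membrane transporters *Abcd2* and *Abcd3*, the oxidation enzymes *Ehhadh*, *Hacl1* and *Phyh*, and catalase (*Cat*). RNA had been sequenced from 36 libraries of mouse brown pre-adipocyte lines. All lines descended from 1 clonal wild-type line in which Cas9 had disrupted *Rxra*, the gene of the nuclear receptor RXRα. The *Rxra*-/- clones 48 and 66 were transduced with a retrovirus that supplied either wild-type mouse RXRα (*Rxra*WT) or RXRα with alanine in place of a phosphorylated serine (*Rxra*SA). Cells were grown to confluence (day 0) in differentiation medium with insulin and triiodothyronine. For the next 2 days the medium also held dexamethasone, isobutylmethylxanthine and indomethacin, and afterwards the cells were kept in differentiation medium without them. The part of these additions in the differences between days was not tested. Cells were collected at days 0, 2 and 6, and each combination of clone, genotype and day had 3 replicates. Every line thus carried the *Rxra* disruption and a transgene, and no line with undisturbed *Rxra* was among the groups compared. Library pool 1 held clone 48 and pool 2 held clone 66, and clone and pool therefore cannot be told apart.

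Peroxisomes shorten very long-chain and branched fatty acids that mitochondria handle poorly. Their membrane proteins are inserted by peroxins, transporters of the ABCD family bring acyl-CoA esters into the organelle, and the enzymes inside shorten the chains by alpha- and beta-oxidation. The first step of peroxisomal beta-oxidation yields hydrogen peroxide, which catalase breaks down. In brown fat peroxisomes multiply as fat cells mature or are exposed to cold, and several of these genes are known targets of PPAR:RXR heterodimers, which bind direct repeats of the motif AGGTCA.

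The total count per library ranged from 11351078 to 24349263 with a median of 18338726, and 16723 genes, including all 9, passed the filter on low counts. The filter asks for a level of about 0.545 CPM (counts scaled to library size) in about 6 libraries. *Ehhadh* reached that level in 0 of 12 libraries at day 0, in 0 of 12 at day 2 and in 12 of 12 at day 6, and it was therefore tested only because of its day 6 libraries. *Abcd2* reached it in 5, 6 and 12 of 12 libraries. The other members reached it in every library. The counts of *Rxra* take endogenous and transgene transcripts together, and their medians were 166 CPM (*Rxra*WT) and 170 CPM (*Rxra*SA) at day 0, 570 and 555 CPM at day 2, and 236 and 244 CPM at day 6. The summed level of 5 adipocyte markers (*Adipoq*, *Fabp4*, *Plin1*, *Cebpa*, *Pparg*) lay between 90.8 and 210 CPM at day 0, between 2800 and 5230 CPM at day 2 and between 5410 and 9440 CPM at day 6, and that of 5 pre-adipocyte markers between 253 and 464, 33.4 and 103, and 41.4 and 168 CPM, with *Dlk1* and *Gpc3* near 0. Most of the genes that define brown adipocytes were near 0, apart from *Ppargc1a* and, at day 2, *Elovl3* (mean 6.45 CPM, range 1.19 to 14.3 CPM). At day 6 *Ucp1* had a mean of 0.186 CPM with at most 5 counts in a library, *Cidea*, *Dio2* and *Elovl3* had means of 0.678, 0.117 and 0.559 CPM, and *Ppargc1a* (21.8 CPM) was the 1 of 5 brown markers above 1 CPM. Of 5 mural cell markers, *Acta2* went from a mean of 278 CPM at day 0 to 1.33 and 3.24 CPM, *Myh11* had a mean of 26.5 CPM at day 6, and *Kcnj8* and *Abcc9* were at or near 0. The 5 skeletal muscle markers summed to 0.661 to 4.6 CPM at day 0, 0.248 to 1.44 CPM at day 2 and 14.6 to 30.1 CPM at day 6, nearly all of it *Des* (mean 19.9 CPM at day 6), with *Myod1* at 0. The 5 macrophage markers summed to 4.96 to 11, 2.77 to 5.85 and 5.35 to 11.5 CPM on these days, mainly *Cd68* (mean 8.28 CPM at day 6), and *Ptprc*, *Adgre1* and *Itgam* were at 0 at day 6. The 5 endothelial markers summed to at most 1.06 CPM (*Pecam1* 0.48 CPM at day 6, *Cdh5* at 0) and the 5 liver cell markers to at most 0.389 CPM (*Hnf4a* 0.174 CPM at day 6, *Alb* and *Ttr* at 0). The part of the changing cell state in the values below was not tested, and in such bulk samples fewer cells of a type and less RNA per cell cannot be told apart.

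All 9 are protein-coding genes. In GRCm38.p6 *Pex11a* lies at chr7:79735957-79743131 on the minus strand, *Pex16* at chr2:92374676-92381217 (plus), *Pex19* at chr1:172126755-172136493 (plus), *Abcd2* at chr15:91145871-91191799 (minus), *Abcd3* at chr3:121758774-121815302 (minus), *Ehhadh* at chr16:21761287-21787807 (minus), *Hacl1* at chr14:31598730-31641286 (minus), *Phyh* at chr2:4919019-4938730 (plus) and *Cat* at chr2:103453849-103485160 (minus). Read pairs were counted on exons without regard to strand, and pairs falling on more than 1 gene were left out. This touches *Hacl1* most. Of its 4945 exonic bases 33.3% are shared, 31.1% with the gene model *Gm49387* on the same strand, which had 0 counts in every library, and 2.18% with *Btd* on the opposite strand. *Pex16* shares 7.15% of its exonic bases with *Large2* on the opposite strand, which had at most 24 counts in a library. The exons of the other 7 overlapped no other gene.

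Promoter sequence was examined because RXRα acts on DNA. RefSeq promoters (GRCm38.p6, the 250 bases before the start site) were on hand for 7 of the 9 genes, as 9 promoters. The sequences below belong to the member with the largest day 2 increase (*Pex11a*), the member with the highest level per length at days 2 and 6 (*Cat*) and the member that appeared at day 6 (*Ehhadh*). Capitals mark, on either strand, the motif AGGTCA, which may itself be part of a repeat, the CCAAT box and the GC box GGGCGG.
*Pex11a*, chr7:79743132-79743381, minus strand: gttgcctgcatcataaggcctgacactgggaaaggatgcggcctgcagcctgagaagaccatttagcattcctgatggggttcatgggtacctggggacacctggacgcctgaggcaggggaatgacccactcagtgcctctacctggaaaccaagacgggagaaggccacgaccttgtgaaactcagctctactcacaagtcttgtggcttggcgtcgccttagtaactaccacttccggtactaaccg
*Cat*, chr2:103485154-103485403, minus strand: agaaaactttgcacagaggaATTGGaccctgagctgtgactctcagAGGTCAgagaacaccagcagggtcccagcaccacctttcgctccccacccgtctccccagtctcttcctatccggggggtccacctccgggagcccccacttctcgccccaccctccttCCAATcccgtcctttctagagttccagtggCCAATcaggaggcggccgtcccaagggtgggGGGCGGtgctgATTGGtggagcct
*Ehhadh*, chr16:21787835-21788084, minus strand: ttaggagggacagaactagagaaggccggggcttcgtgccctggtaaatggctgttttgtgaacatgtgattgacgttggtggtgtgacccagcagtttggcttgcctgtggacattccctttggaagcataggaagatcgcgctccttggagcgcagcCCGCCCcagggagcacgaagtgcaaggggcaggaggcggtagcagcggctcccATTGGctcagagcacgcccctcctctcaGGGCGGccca
The *Pex11a* window held none of these letters. The *Cat* window held 1 AGGTCA, from 204 to 199 bases before the start, 4 CCAAT and 1 GC box, and the *Ehhadh* window held 1 CCAAT and 2 GC boxes. Over the member promoters, AGGTCA was found in 1 of 9, against 14% of all 32851 promoters in the table. CCAAT was found in 4 of 9 (33.8% of all) and the GC box in 4 of 9 (32.7% of all). The direct repeat of AGGTCA with 1 base between the copies was in 0 of 9 (0.0335% of all), and the same repeat with any base at the fourth place of each copy was also in 0 of 9 (0.338% of all). These matches describe letters in short windows and are not binding sites.

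The question put to the time course was how these genes moved as the cells differentiated. At day 2, 7 of the 9 genes were higher than at day 0 and 0 were lower (edgeR quasi-likelihood test, adjusted p under 0.05), where 35.8% of all genes tested were higher and 37.5% lower. The median log2 fold change of the 9 was 1.74, against -0.02 over all genes. At day 6, 9 of 9 were higher than at day 0 (32.9% of all genes, with 35.4% lower), with a median of 2.18 against -0.03. From day 2 to day 6, 4 of them rose (31.9% of all genes) and 5 fell (30.1%). The 5 that fell were the 3 peroxins, *Abcd3* and *Cat*, which over both clones all peaked at day 2. In clone 48 alone the fall of *Pex11a* was not called (adjusted p = 0.781 in the edgeR test). The 4 that rose were *Ehhadh*, *Abcd2*, *Phyh* and *Hacl1*. *Ehhadh* passed the filter only through day 6, so its being higher on that day adds no support to these counts. In clone 48 taken alone 6 members were called at day 2 against day 0 (65.3% of all genes), 9 at day 6 against day 0 (56.3%) and 7 between days 2 and 6 (51.1%). In clone 66 these counts were 7 (61.6%), 9 (57.7%) and 8 (50.5%).

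**Figure D1:**
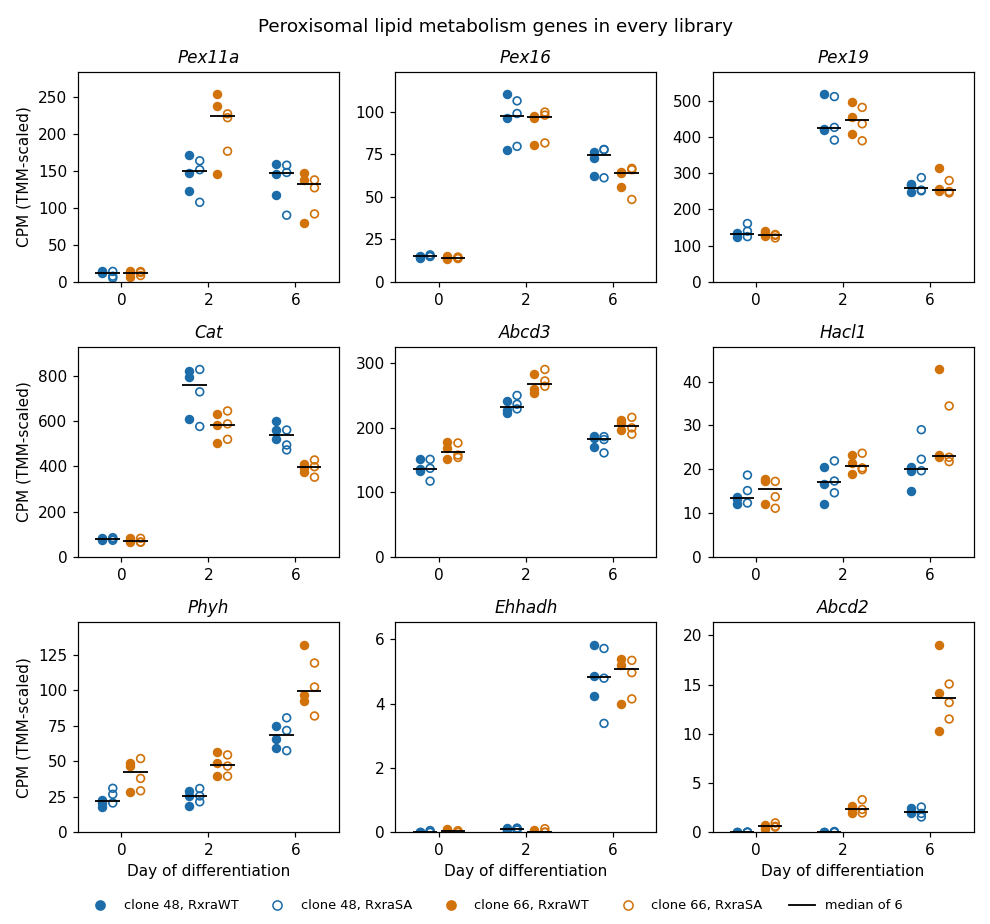
CPM of the 9 genes in each of the 36 libraries by day, on linear axes from 0, with clone 48 in blue, clone 66 in orange, *Rxra*WT filled and *Rxra*SA open; lines are medians of 6 libraries. *Pex11a*, *Pex16*, *Pex19*, *Cat* and *Abcd3* had their highest medians at day 2, though *Pex11a* in clone 48 was nearly level at days 2 and 6 (149 and 147 CPM). *Ehhadh* stayed at or under 0.138 CPM until day 6 and *Abcd2* in clone 48 at or under 0.0694 CPM.

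All 3 peroxins were higher at day 2 than at day 0. *Pex11a*, which elongates and divides peroxisomes, lay between 5.43 and 15.4 CPM at day 0 (median 12.7, n = 12), between 108 and 253 CPM at day 2 (median 167) and between 79.6 and 159 CPM at day 6 (median 138). Day 0 was separate from both later days, while days 2 and 6 overlapped. Its log2 fold change was 3.93 ± 0.175 (SE) at day 2 (adjusted p = 2.45e-20), the largest of the 9 at that day. *Pex11a* then fell by 0.45 ± 0.154 from day 2 to day 6 (adjusted p = 0.0121). The change was -0.08 ± 0.208 in clone 48 (adjusted p = 0.781) and -0.81 ± 0.209 in clone 66 (adjusted p = 0.00176), and the test of the difference between clones is given with the clone comparisons. The fall over both clones was lost without the libraries of replicate number 2 or 3 of clone 66 (adjusted p = 0.0867 and 0.0675).

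*Pex16*, which helps to insert peroxisomal membrane proteins, had 13.2 to 15.9 CPM at day 0 (median 14.6), 77.4 to 110 CPM at day 2 (median 96.8) and 48.4 to 77.8 CPM at day 6 (median 65.1). The highest day 6 library lay just above the lowest day 2 library, and day 0 was well below both. The log2 fold change was 2.68 ± 0.072 at day 2 (adjusted p = 2.01e-26) and -0.50 ± 0.0673 from day 2 to day 6 (adjusted p = 5.61e-08). *Pex19*, the chaperone that carries membrane proteins to the peroxisome, was the most abundant peroxin per length and behaved likewise, with 121 to 161 CPM at day 0 (median 131), 389 to 517 CPM at day 2 (median 431) and 245 to 314 CPM at day 6 (median 254). Its 3 days did not overlap in any library. *Pex19* rose by 1.74 ± 0.0604 at day 2 (adjusted p = 2.25e-23) and fell by 0.75 ± 0.059 thereafter (adjusted p = 2.85e-13), the largest fall of the 9.

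The 2 transporters differed. *Abcd3*, which imports long-chain and branched acyl-CoAs and is an abundant protein of the peroxisomal membrane, was already at 117 to 178 CPM at day 0 (median 151), rose to between 222 and 290 CPM at day 2 (median 252) and stood between 161 and 216 CPM at day 6 (median 188). Day 2 was separate from the other days, whereas days 0 and 6 overlapped. The changes were small, with log2 values of 0.74 ± 0.0472 at day 2 (adjusted p = 5.41e-16) and 0.34 ± 0.047 at day 6 (adjusted p = 7.98e-08), both against day 0. Within each clone day 6 did not overlap day 0.

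*Abcd2*, a transporter of very long-chain fatty acids, was scarce and depended on the clone. In clone 48 it had 0 counts in all 6 libraries at day 0 and 1 count in 1 of 6 at day 2. At day 6 the 6 libraries of clone 48 held 27 to 46 counts, or 1.54 to 2.55 CPM (median 2.05), at least 74.2-fold higher than day 0 when day 0 is set to 3 counts over the group. In clone 66 the range was 0.307 to 0.939 CPM at day 0 (median 0.635), 1.95 to 3.3 CPM at day 2 (median 2.32) and 10.2 to 19.1 CPM at day 6 (median 13.7). Each step in clone 66 was free of overlap, with log2 fold changes of 1.95 ± 0.24 from day 0 to 2 (adjusted p = 1.92e-07) and 2.51 ± 0.205 from day 2 to 6 (adjusted p = 3.64e-10). Over both clones the fit gave 1.83 ± 0.352 at day 2 (adjusted p = 2.13e-05), a value that comes from clone 66, and 4.93 ± 0.328 at day 6 (adjusted p = 2.11e-15).

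Among the oxidation enzymes *Ehhadh*, the bifunctional hydratase and dehydrogenase of peroxisomal beta-oxidation, appeared late. Its libraries held at most 2 counts each at days 0 and 2, with 7 counts over all 12 libraries at day 0 and 12 at day 2. At day 6 each library held 61 to 120 counts, or 3.39 to 5.84 CPM (median 4.91). The ratio of day 6 to day 2 was 82.1 (95% counting interval 46.8 to 159), and that of day 6 to day 0 was 163 (79 to 407). The fitted log2 fold change was 6.21 from day 2 to day 6 (adjusted p = 7.97e-21). From day 0 to day 2 it was 0.94 (adjusted p = 0.143), which did not pass the test. No ± is given for *Ehhadh*, because with so few counts that of the fit is smaller than counting error. Since *Ehhadh* was tested only because of day 6, the p-value of the rise to day 6 is not separate support for it. In clone 48 alone each of the 6 day 2 libraries held 1 or 2 counts, 9 in all against 1 at day 0. The ratio was 10.1 (1.4 to 442), and this step was called (fitted log2 change 2.91, adjusted p = 0.00427). In clone 66 there were 3 counts at day 2 against 6 at day 0, and the step was not called (adjusted p = 0.784). Without the libraries of replicate number 2 of clone 66 the step over both clones passed the test (1.43, adjusted p = 0.0433).

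*Phyh* and *Hacl1* are successive enzymes of alpha-oxidation, which removes 1 carbon from branched fatty acids such as phytanic acid. *Phyh*, the hydroxylase, lay between 17.8 and 51.8 CPM at day 0 (median 28.6), between 18.2 and 56.6 CPM at day 2 (median 35.1) and between 57.4 and 132 CPM at day 6 (median 81.2). The first 2 days overlapped almost fully, while day 6 was above both in every library. Its log2 fold change was 0.18 ± 0.113 from day 0 to 2 (adjusted p = 0.15) and 1.28 ± 0.114 from day 2 to 6 (adjusted p = 7.09e-12). With the replicate number as a block the first step, 0.19, passed the test (adjusted p = 0.0204).

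*Hacl1*, the lyase of the same pathway, had 11.1 to 18.7 CPM at day 0 (median 13.7), 12.1 to 23.7 CPM at day 2 (median 20.1) and 15.1 to 42.8 CPM at day 6 (median 22.5). All 3 days overlapped. The log2 fold change was 0.39 ± 0.124 at day 2 (adjusted p = 0.005) and 0.74 ± 0.124 at day 6 (adjusted p = 2.68e-06), both against day 0. The day 2 value was lost when scaled by library size alone (0.13, adjusted p = 0.365) and in clone 48 alone (0.26, adjusted p = 0.149). The step from day 2 to day 6, 0.35 ± 0.123 (adjusted p = 0.0144), was lost in each clone by itself, where adjusted p was 0.102 in clone 48 and 0.0712 in clone 66. It was lost too without replicate 1 of clone 66 *Rxra*WT at day 6, the highest of all *Hacl1* libraries (0.23, adjusted p = 0.0691), and without the libraries of replicate number 1 of clone 48 or of clone 66 (adjusted p = 0.0613 and 0.141).

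*Cat*, which removes hydrogen peroxide, was the most abundant of the 9 per length at days 2 and 6. It had 65.3 to 85.7 CPM at day 0 (median 78), 503 to 827 CPM at day 2 (median 620) and 352 to 601 CPM at day 6 (median 450). Days 2 and 6 overlapped in clone 48 and did not overlap in clone 66. *Cat* rose by 3.08 ± 0.0758 at day 2 (adjusted p = 2.64e-27) and fell by 0.50 ± 0.0701 from day 2 to day 6 (adjusted p = 1.6e-07).

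Where libraries rather than the fit are counted, the 12 libraries of day 2 all lay above the 12 of day 0 for 5 members (13.6% of all genes tested), and those of day 6 above day 0 for 7 (12.2% of all). Day 6 was wholly above day 2 for *Ehhadh* and *Phyh* (9.56% of all) and wholly below it for *Pex19* and *Abcd3* (7.56% of all). *Ehhadh*, also among the 7, passed the filter only through day 6, so its day 6 libraries add no support to these counts. In median CPM per kilobase of exon, the order at day 0 was *Pex19* (34.3), *Cat* (29.9), *Abcd3* (22.9), *Phyh* (15.1), *Pex16* (8.2), *Pex11a* (4.01) and *Hacl1* (2.78), with *Abcd2* and *Ehhadh* near 0. At day 2 it was led by *Cat* (237), *Pex19* (113), *Pex16* (54.5) and *Pex11a* (52.6). At day 6 it ran from *Cat* (172) and *Pex19* (66.7) over *Pex11a* (43.3), *Phyh* (42.9), *Pex16* (36.7) and *Abcd3* (28.6) to *Hacl1* (4.56), *Ehhadh* (1.65) and *Abcd2* (1.08). The levels of *Pex11a*, *Phyh* and *Pex16* at day 6 lay within each other's range of libraries and are not to be ranked. Other neighbours in these orders were not tested against each other. The level of *Hacl1* per length may be understated, because 33.3% of its exonic bases are shared and pairs falling on more than 1 gene were left out.

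**Figure D2:**
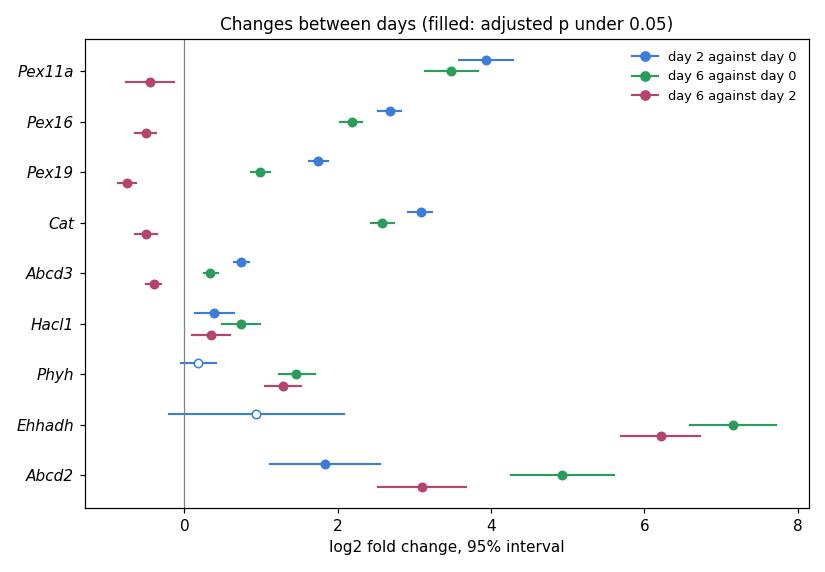
Log2 fold change of each gene between days with its 95% interval from the edgeR fit over both clones and genotypes (36 libraries); filled points passed an adjusted p of 0.05. The points for day 6 against day 2 are negative for *Pex11a*, *Pex16*, *Pex19*, *Cat* and *Abcd3* and positive for *Hacl1*, *Phyh*, *Ehhadh* and *Abcd2*. The intervals of *Ehhadh* are narrower than counting error.

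The comparison of *Rxra*SA with *Rxra*WT asks whether transcription in these cells depends on the phosphorylated serine. None of the 9 genes was called between *Rxra*SA and *Rxra*WT by the edgeR test at day 0, day 2 or day 6, and 0% of all genes tested were. At an unadjusted p under 0.05 the count was also 0 of 9 on each day, while 139, 162 and 125 of all genes were under that value. These are fewer genes than chance gives at that threshold. DESeq2 called 0 of 9 as well. The 6 *Rxra*SA libraries overlapped the 6 *Rxra*WT libraries for every member on every day, where 0.012% of all genes at days 0 and 2 and 0.0239% at day 6 did not overlap.

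The sizes that remain possible under this fit can be read from the intervals. The fit does not pair libraries of the same replicate number, which moved together, so the intervals may be wider than paired ones. *Cat*, the member most raised in absolute level, had 503 to 820 CPM in *Rxra*WT (median 620) and 519 to 827 CPM in *Rxra*SA (median 616) at day 2, a log2 difference of -0.02 (95% interval -0.22 to 0.19). *Pex16* differed by 0.02 (-0.18 to 0.21) and *Pex19* by -0.04 (-0.21 to 0.12) on that day. *Pex11a* had 5.43 to 14.3 CPM (median 10.8) in *Rxra*SA and 7.23 to 15.4 CPM (median 12.8) in *Rxra*WT at day 0, and its interval was wider (-0.25, -0.71 to 0.21). At day 6 *Ehhadh* differed by -0.06 (-0.47 to 0.35), *Phyh* by 0.00 (-0.32 to 0.32), *Hacl1* by 0.08 (-0.27 to 0.43) and *Abcd2* by -0.14 (-0.82 to 0.54). The narrowest intervals were those of *Abcd3*, which lay between -0.18 and 0.19 over the 3 days. For *Ehhadh* at days 0 and 2, with 2 to 7 counts over the 6 libraries of a genotype, a difference was not detectable at this depth.

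Same-numbered libraries were also compared in pairs. *Abcd3* at day 2 was higher in *Rxra*SA in 6 of 6 pairs, by 0.04 to 0.07 on the log2 scale, but this small difference did not pass the test (0.05, -0.08 to 0.19, adjusted p = 1), nor with pairs as blocks. For a change with time that differed between the genotypes 0 of 9 were called, and 0% of all genes, for each of the 3 intervals. From day 0 to day 6 the difference of differences was 0.18 (-0.46 to 0.82) for *Pex11a*, -0.03 (-0.32 to 0.25) for *Cat* and -0.15 (-0.61 to 0.31) for *Phyh*.

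**Figure D3:**
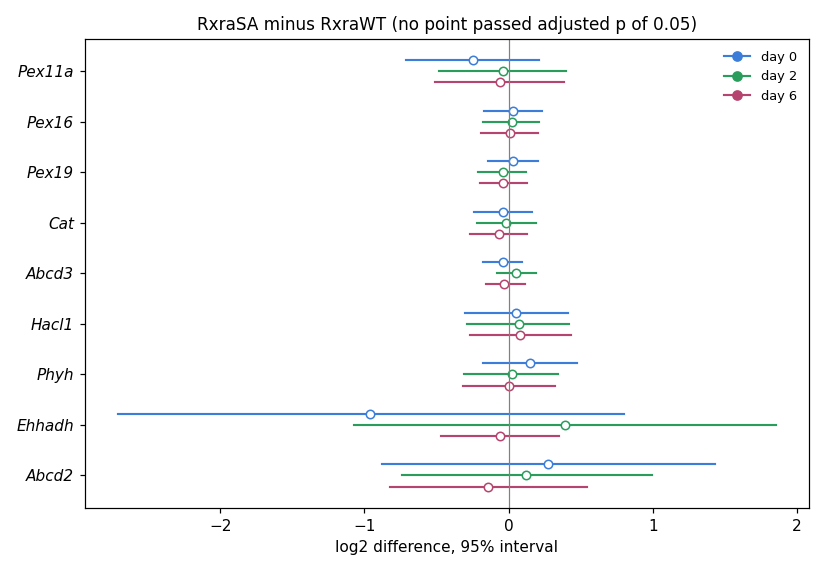
Log2 difference of *Rxra*SA from *Rxra*WT for each gene at days 0, 2 and 6, with 95% intervals from 6 libraries per genotype and day in the fit over 36 libraries; open points did not pass an adjusted p of 0.05. All 27 intervals include 0, and they are widest for *Ehhadh* at days 0 and 2.

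The clones differed more than the genotypes. In clone 66, 3 of 9 genes were higher than in clone 48 at day 0 and 0 were lower (12.6% and 11.1% of all genes). At day 2, 4 were higher and 1 was lower (14.5% and 15.5%), and at day 6, 3 were higher and 1 was lower (13.4% and 12.8%). *Abcd2* and *Phyh* were higher in clone 66 on all 3 days, also under each of the 48 alternatives run for these contrasts. The summed adipocyte markers went the other way, with medians of 160 CPM in clone 48 and 124 CPM in clone 66 at day 0, 4330 and 3280 CPM at day 2, and 8950 and 6600 CPM at day 6. Their part in the clone differences was not tested.

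*Abcd2* showed the largest gap. The 6 libraries of clone 66 held 8 to 20 counts each at day 0 where clone 48 had 0. That is 21.8-fold more when clone 48 is set to 3 counts over the group, with a lower end of the 95% counting interval of 17.3-fold. At day 2 clone 66 had 36 to 61 counts per library against 1 count in all of clone 48, a ratio of 228 (95% counting interval 40.6 to 9050). At day 6 the ratio was 6.55 (5.68 to 7.59), and the fitted log2 difference was 2.72 ± 0.209 (adjusted p = 8.18e-10). The libraries of the 2 clones did not overlap on any day. Ranges free of overlap with clone 66 higher were found for 2 members at day 0 (7.09% of all genes), 3 at day 2 (9.47%) and 3 at day 6 (7.95%), and with clone 66 lower for *Cat* at day 6 (7.24%).

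*Phyh* was higher in clone 66 by 0.81 ± 0.164 at day 0 (adjusted p = 0.000402), 0.92 ± 0.164 at day 2 (adjusted p = 6.57e-05) and 0.61 ± 0.161 at day 6 (adjusted p = 0.0049). Its libraries lay between 39.4 and 56.6 CPM in clone 66 and between 18.2 and 30.7 CPM in clone 48 at day 2, without overlap, and at day 6 they lay between 81.8 and 132 and between 57.4 and 80.5 CPM. *Abcd3* was higher in clone 66 in every library on each day but by little, with log2 differences of 0.26, 0.21 and 0.19 (adjusted p = 0.00714, 0.0237 and 0.042). *Cat* was the 1 member that was lower in clone 66, by 0.33 at day 2 (adjusted p = 0.00904) and 0.44 at day 6 (adjusted p = 0.000754), when its libraries lay between 352 and 428 CPM against 472 to 601 CPM in clone 48. The *Pex11a* difference at day 2 (0.55 ± 0.208, adjusted p = 0.046) stood at the threshold and was kept in 23 of 48 alternatives, and that of *Abcd3* at day 6 also in 23 of 48. *Pex16*, *Pex19*, *Ehhadh* and *Hacl1* did not pass the test on any day.

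The change with time differed between the clones for *Abcd2*. From day 2 to day 6 it rose by 4.75 log2 units less in clone 66 than in clone 48 (adjusted p = 7.59e-05). From day 0 to day 6 it rose by 3.81 less (adjusted p = 0.00946). Of all genes 6.18% and 3.85% differed. Both values rest on clone 48 groups with 0 or 1 count, so their size depends on the prior count of the fit, and no ± is given for them. The second was lost when the libraries of replicate number 1 or 2 of clone 48, or of number 2 of clone 66, were left out of every group, where adjusted p was 0.0713, 0.0632 and 0.0531. No member was called from day 0 to day 2, where 6.84% of all genes were, 1 of 9 had an unadjusted p under 0.05, and DESeq2 also called 0. With the replicate number as a block *Pex11a* was called too, with a log2 difference of 0.50 from day 0 to day 2 (adjusted p = 0.0286) and -0.73 from day 2 to day 6 (adjusted p = 0.000765). Without the block these were 0.49 and -0.73 with adjusted p of 0.43 and 0.163.

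**Figure D4:**
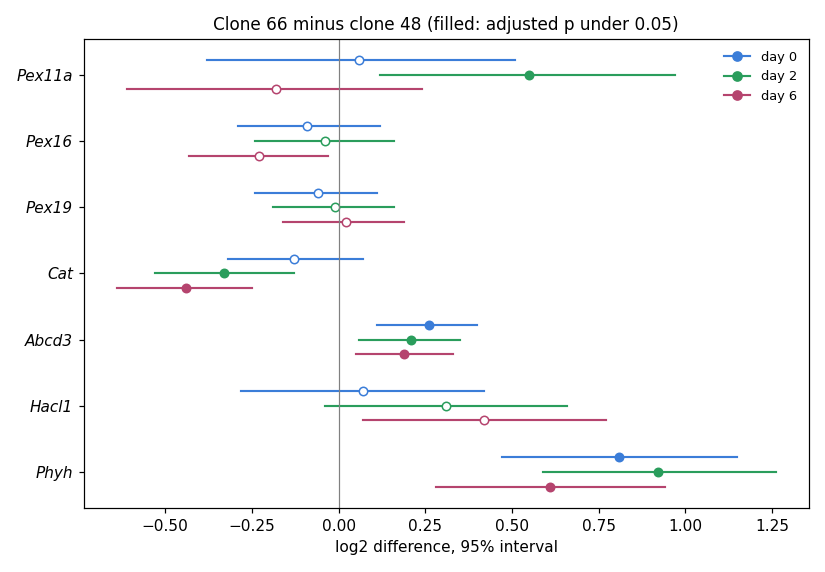
Log2 difference of clone 66 from clone 48 for 7 genes at days 0, 2 and 6 with 95% intervals (6 libraries per clone and day); filled points passed an adjusted p of 0.05. *Abcd2* and *Ehhadh* are left out because clone 48 had 0 or 1 count in all at day 0. *Phyh* and *Abcd3* lie to the right of 0 on all days and *Cat* to the left on days 2 and 6.

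The wider set of peroxisome and PPAR genes gave a setting for the 9. Of 77 further genes in 5 lists, 62 were tested. At day 2, 47 of the 62 (75.8%) were higher than at day 0 and 8 (12.9%) were lower, against 35.8% and 37.5% of all genes. At day 6, 49 (79%) were higher and 3 (4.84%) lower (44 and 7 genes when scaled by library size alone), against 32.9% and 35.4% of all genes. The 49 include *Rxrg*, which passed the filter only through day 6 and adds no support to this count. From day 2 to day 6, 25 (40.3%) rose and 21 (33.9%) fell, near the 31.9% and 30.1% of all genes. The median log2 fold change of the 62 was 0.84 at day 2 and 0.91 at day 6, against -0.02 and -0.03 over all genes. None of the 62 was called between genotypes by the edgeR test on any day, and 0 had an unadjusted p under 0.05.

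Of 17 tested peroxins and division factors, 14 were higher at day 6 than at day 0 (82.4%, against 32.9% of all genes) and 0 were lower. *Pex13*, a part of the import pore, rose by 1.47 from a mean of 82.6 CPM, and *Pex11g*, a relative of *Pex11a*, by 1.43 from 4.51 CPM. *Pex2*, an import ligase, rose by 0.25 (adjusted p = 0.046). Among 19 genes of fatty acid transport and beta-oxidation, 13 were higher (68.4%) and 1 lower. *Acox2*, an oxidase of branched chains and bile acid precursors, went from a mean of 0.0703 CPM at day 0 to 1.83 and 17.2 CPM, a log2 change of 7.90 ± 0.354 at day 6. The thiolase *Acaa1b* rose by 5.62 ± 0.246 and the racemase *Amacr* by 0.35, while *Crot*, which exports medium-chain products, was the 1 that fell, by 0.34 (adjusted p = 0.0077).

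Of the 5 genes of ether lipid synthesis, 3 were higher at day 6 (60%) and 1 was lower, where 32.9% of all genes were higher and 35.4% lower. *Gnpat*, its first enzyme, rose by 2.40 and *Tmem189*, which makes the plasmalogen bond, by 1.31. *Far2* rose by 0.37, whereas *Agps*, the enzyme after *Gnpat*, fell by 0.39 (adjusted p = 2.69e-05). Of 14 peroxide-handling and other peroxisomal enzymes, 12 were higher (85.7%) and 1 was lower. *Ephx2*, an epoxide hydrolase, rose by 7.35 and *Ddo*, the D-aspartate oxidase, by 4.56, the latter from a mean of 0.725 CPM at day 0 and 0.359 CPM at day 2 to 16.2 CPM at day 6. *Nudt12* rose by 0.84 and the membrane protein *Mpv17* fell by 0.62.

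All 7 tested PPAR and partner genes were higher at day 6 than at day 0, where 32.9% of all genes were. *Pparg*, which is also 1 of the 5 adipocyte markers above, rose by 2.80 to a mean of 522 CPM. *Rxra* rose by 0.62 and *Rxrb* by 0.56. *Rxrg* had 0 counts in all libraries at day 0, 2 at day 2 and 451 at day 6. This is 162-fold more at day 6 when day 0 is set to 3 counts over the group. *Rxrg* thus passed the filter only through day 6, and its call adds no support to the count of 7. *Ppara* had at most 5 counts in a library and was not tested. Like the 5 early members, *Rxra* peaked at day 2 (mean 542 CPM) and fell by 1.15 ± 0.111 by day 6 (adjusted p = 4.75e-11). Its counts take endogenous and transgene transcripts together, so neither its rise nor this fall is that of the endogenous gene alone.

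**Figure D5:**
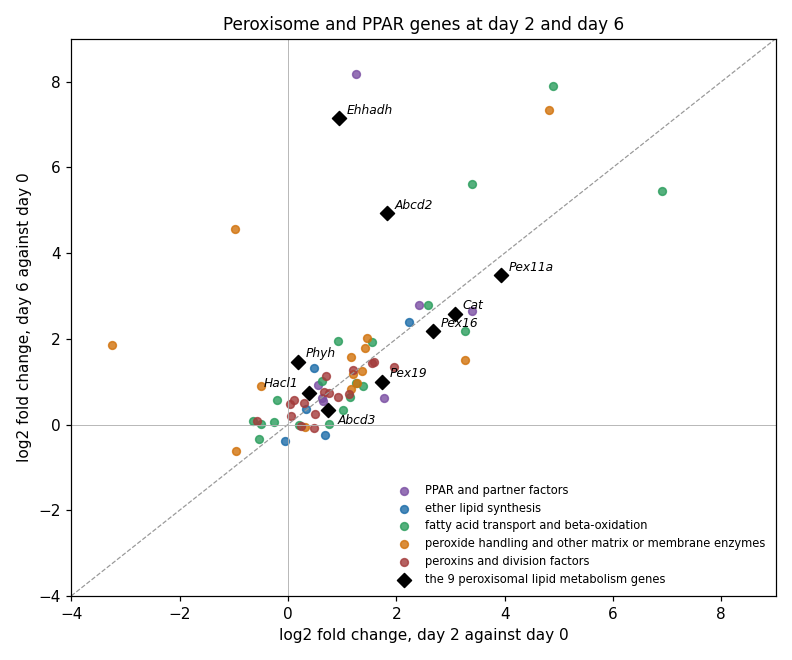
Log2 fold change at day 6 against that at day 2, both relative to day 0, for the 62 listed genes (dots, coloured by list) and the 9 peroxisomal lipid metabolism genes (black diamonds); the dashed line marks equal change. *Ehhadh*, *Abcd2* and *Phyh* lie above the line and *Pex11a*, *Pex16*, *Pex19* and *Cat* below it. The axes share day 0 libraries, and the topmost dot is *Rxrg*, whose fitted value rests on 0 counts at day 0.

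The profiles of the members were compared over the 12 means of clone, genotype and day. These points share libraries' depth and the days dominate them, so the correlations of log2 CPM are given as a description. *Pex16* and *Cat* were closest (r = 0.996), followed by *Pex11a* and *Pex16* (0.988), and *Pex19* had r of 0.923 with *Abcd3*. *Abcd2* was closest to *Phyh* (0.969) and *Ehhadh* to *Phyh* (0.838). *Pex19* and *Ehhadh* had r of 0.129.

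Over the 36 libraries the 3 genes most like each member were taken from 9374 others with a mean log2 CPM of at least 3. For *Pex16* they were *Apmap* (r = 0.993), *Acsl1* and *Agpat2* (both 0.991), and those of *Cat* included *Aco1* (0.989) and *Agpat2* (0.988). *Pex19* was most like *Adipor2* (0.989), *Abhd5* (0.986) and *Ormdl3* (0.984), and *Pex11a* most like *Arl15* (0.987), *Hibadh* and *Nfil3* (both 0.985). *Abcd3* ran with *Mrpl15* (0.984), *Utp4* (0.974) and *Eif3d* (0.969). Among the late members, *Ehhadh* ran with *Selenbp1* (0.981), *Pald1* and *Fam162a* (both 0.977), *Phyh* with *Snx10* (0.953), *Narf* (0.949) and *Ndrg2* (0.935), *Abcd2* with *Cdc42se1* (0.944), *Sil1* (0.941) and *Unc119* (0.934), and *Hacl1* with *Blvrb* (0.926), *Ndufa6* and *Serhl* (both 0.925).

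Replicate numbers left a mark on single members. *Phyh* was lowest in replicate 3 in 12 of the 12 groups of clone, genotype and day, and *Cat* and *Hacl1* were lowest in replicate 3 in 10 of 12. *Pex11a* was lowest in replicate 1 in 11 of 12 groups, so that in clone 66 *Rxra*WT at day 2, for example, its 3 libraries stood at 146, 238 and 253 CPM.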

How the data were processed

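RNA was sequenced as stranded total RNA from 36 libraries. Per the labels and the paper's methods, the authors aligned read pairs to mm10 with STAR 2.7.0d, counted them on exons of GENCODE M21 genes with featureCounts 1.6.2 without using strand, left out pairs hitting more than 1 gene or place, and deposited raw counts, which are not normalized. Clone, genotype, day and replicate came from the sample labels. One description calls the replicates technical and the paper calls them independent, so p-values measure the spread between these libraries. The 9 genes and all gene lists were chosen with earlier results of these data known.

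Counts were filtered with filterByExpr and TMM-scaled in edgeR 4.0.16 (R 4.3.3), giving CPM. The quasi-likelihood test (legacy form) used a coefficient for each genotype and day plus clone, as the study's model did, and a coefficient for each clone, genotype and day for clone contrasts and changes within a clone. P-values were Benjamini-Hochberg adjusted over 16723 genes, with a threshold of 0.05. Intervals are 95%. Counting intervals are exact binomial intervals and cover counting error only, and a group at 0 was set to 3 counts. Same-numbered libraries deviated from their group means together (r from 0.176 to 0.93 over 18 pairs, 9381 genes), so replicate numbers were taken to pair libraries within a clone. No 2 replicates were the same library (chi-square per degree of freedom at least 12). Named genes were all 9 members, from each list the 2 highest and 2 lowest changes of day 6 against day 0 among called genes, the 3 genes most correlated with each member, genes with overlapping exons, and *Rxra*. Of the genes this rule names, 2 are not reported here. Marker genes were taken from marker lists, and the replicate ranks were added after their values were seen. Promoters came from RefSeq. Alternatives were scaling by RLE or by library size alone, filtering by 1 CPM in at least 6 libraries or not at all, DESeq2 1.42.0, edgeR's version 4 test, the days compared alone, a replicate block, no clone term, each clone alone, and each library or replicate number left out. The fits were tested on simulated data. Figures were drawn with matplotlib in Python.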

Additional observations from a re-analysis of the deposited data

Results flagged for a closer look

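*Abcd2* changed differently in the 2 clones. The test of the difference gave -3.81 on the log2 scale from day 0 to day 6 and -4.75 from day 2 to day 6 (clone 66 minus clone 48, adjusted p = 0.00946 and 7.59e-05), when the 6 libraries of clone 48 held 0, 1 and 216 counts on the 3 days and those of clone 66 held 81, 265 and 1610. Clone and library pool cannot be told apart.

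Among 53 groups of 6 libraries (gene, clone and day), 2 held a library that stood apart from the other 5 by Dixon's criterion at the 95% level, where chance gives about 1 in 20. Both rest on a single count. *Abcd2* had 0.0694 CPM in clone 48 *Rxra*SA replicate 2 at day 2, and *Ehhadh* had 0.0512 CPM in clone 48 *Rxra*SA replicate 3 at day 0, with 0 in the 5 others of each group.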

How the results depend on the processing

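Up to 54 alternatives were run per contrast. The 9 genes were called higher at day 6 than at day 0 under each of 53 alternatives. Of *Rxra*SA against *Rxra*WT and of genotype by time, 0 members were called under any. No called member reversed its direction.

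Clone contrasts moved most. At day 2, 3 members in place of 5 were called between clones with library size alone and 3 with no filter. With a replicate block, clone by time gave 1 in place of 0 members from day 0 to 2 and 2 in place of 1 from day 2 to 6, *Pex11a* in both, and *Phyh* was called from day 0 to 2. The block changed no other call. Library size alone shifted the median of all genes to -0.27 at day 2 and -0.22 at day 6 against day 0, moved the share of higher among called genes from 48.9% to 33.6% and from 48.2% to 34.9%, lost *Hacl1* at day 2 (0.13, adjusted p = 0.365) and gave 7 in place of 3 listed genes lower at day 6. In clone 48 alone the *Pex11a* fall after day 2 and the *Abcd2* and *Hacl1* rises at day 2 were lost, and the *Ehhadh* rise at day 2 was called (2.82, adjusted p = 0.00477).

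With 1 library or 1 replicate number left out, members called ranged from 7 to 8 for day 2 against day 0, 9 to 9 for day 6 against day 0, 8 to 9 for day 6 against day 2, 0 to 0 for all genotype contrasts, 2 to 3, 2 to 6 and 3 to 5 between clones at days 0, 2 and 6, and 0 to 1, 0 to 1 and 1 to 2 for clone by time. Without the shallowest library (clone 48 *Rxra*SA replicate 1 at day 0) every count of called members stayed the same. Counting error limits *Ehhadh* and *Abcd2*. Fitting the compared days alone dropped *Ehhadh* at days 0 and 2 and *Abcd2* at day 0.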
